A study of Mus musculus with 10 samples.

Results

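The genes described here are 34 that hepatocytes, the main cells of the liver, use for their metabolic work, out of 48516 genes with an identifier in the deposited expression table of a mouse pancreatic cancer series. They were picked by symbol, and each symbol was found in 1 row of the table. The choice was made with their levels in these libraries known, so where they were high or low is given as a description and is not tested. They comprise 5 cytochrome P450 enzymes of drug, solvent and fatty acid oxidation, 5 genes of bile acid synthesis and uptake, 9 of amino acid breakdown, 1 of glutamine synthesis, 4 of methionine and one-carbon metabolism, 5 of glucose, glycogen and fructose metabolism, 4 of peroxisomal, purine and alcohol metabolism, and 1 mitochondrial carrier.

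Cells of Ink4a.1, a mouse pancreatic cancer line, were injected into the pancreas of mice of a model named INK4.1syn_Luc, and liver metastases were taken into culture and, per the series design, checked to descend from Ink4a.1. The series compares 5 libraries labelled as liver metastasis, numbered 25, 35, 36, 38 and 72, with 5 libraries labelled as primary tumour that carry the same numbers. All 10 share the FVB strain, the Ink4a name and the absence of any treatment, all were labelled pancreas tumour as tissue, and all were described as lines collected at 90% confluence before polyadenylated RNA was selected. The series design speaks of metastases from 4 mice and of a parental line, while the labels number 5 metastasis and 5 primary samples; the labels do not tell if primary samples are different animals or several dishes of a line, so the spread between them, and every p-value, may be partly technical. The lines derive from 1 parental line, and no label names a promoter, a Cre or a second cell type. Metastasis 25, for example, means the metastasis library with tumour number 25.

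Several libraries held transcripts of cells that their labels do not name. All 14 hepatocyte marker genes (albumin, apolipoproteins, fibrinogen chains and other plasma proteins) were at 1 FPKM or more in metastasis 25, metastasis 72 and primary 72, where FPKM stands for fragments per kilobase, scaled to sequencing depth. Primary 25 reached this level for 12 of the 14, and the other 6 libraries for between 1 and 3. The summed level of these markers lay between 4.86 and 40676 FPKM in metastasis libraries and between 4.49 and 4217 FPKM in primary libraries. It was 40676 FPKM in metastasis 25 and 1041 FPKM in metastasis 72, against 4217 FPKM in primary 72, so 1 library labelled as primary tumour held more liver marker transcript than 4 of the 5 labelled as liver metastasis. Albumin (Alb), the main plasma protein, was at 9850, 0.0426, 0.134, 0.159 and 139 FPKM in metastasis 25, 35, 36, 38 and 72, against 13.2, 0.188, 0.102, 0.180 and 436 FPKM in primary 25, 35, 36, 38 and 72. Transferrin (Trf) behaved apart from the other 13 markers and made up 95.1% of the marker sum in metastasis 38, against 98.3% in primary 38 and 84.2% in primary 25. In bulk RNA, fewer cells of a type and less RNA per cell cannot be told apart.

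Hepatocytes clear what the gut and the blood bring to the liver. They oxidise drugs and solvents with cytochrome P450 enzymes, turn cholesterol into bile acids, break down amino acids into fuel and nitrogen waste, and release glucose during fasting. Most of these pathways run almost only in hepatocytes, with some shared by kidney, and several are arranged along the liver lobule, with periportal cells making glucose and urea and pericentral cells making glutamine and oxidising drugs.

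The promoter stretches of these genes are shown for 4 members that stand for the ends of the pattern described in what follows. Each stretch is the 250 bases before the start of the gene in RefSeq (GRCm38.p6), read 5′ to 3′ on the strand of the gene, and its start can lie inside a longer transcript of another annotation. Cyp8b1 (chr9:121916306-121916555, minus strand) and G6pc (chr11:101367466-101367715, plus strand) were under 1 FPKM in at least 7 of the 10 libraries, whereas Khk (chr5:30921309-30921558, plus strand) and Fah (chr7:84605943-84606192, minus strand) were above it in all 10. Capitals mark a match to the HNF4 core CAAAGTCCA, the HNF1 half-site GTTAATNA, the C/EBP letters TTGCNNAA or the TATA box TATAAA, on either strand.
Cyp8b1: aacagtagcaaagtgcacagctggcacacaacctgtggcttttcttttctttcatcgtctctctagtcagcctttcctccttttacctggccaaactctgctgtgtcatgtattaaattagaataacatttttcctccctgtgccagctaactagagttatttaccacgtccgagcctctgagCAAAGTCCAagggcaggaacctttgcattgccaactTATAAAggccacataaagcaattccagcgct
G6pc: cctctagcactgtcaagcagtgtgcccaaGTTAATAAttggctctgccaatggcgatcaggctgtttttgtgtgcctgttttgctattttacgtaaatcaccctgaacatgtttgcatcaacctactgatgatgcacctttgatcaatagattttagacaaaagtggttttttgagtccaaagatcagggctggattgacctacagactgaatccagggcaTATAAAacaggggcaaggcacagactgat
Khk: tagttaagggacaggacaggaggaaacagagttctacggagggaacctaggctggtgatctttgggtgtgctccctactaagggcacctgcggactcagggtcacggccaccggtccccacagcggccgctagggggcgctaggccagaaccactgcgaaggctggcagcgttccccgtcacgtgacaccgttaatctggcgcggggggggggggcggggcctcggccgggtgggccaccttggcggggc
Fah: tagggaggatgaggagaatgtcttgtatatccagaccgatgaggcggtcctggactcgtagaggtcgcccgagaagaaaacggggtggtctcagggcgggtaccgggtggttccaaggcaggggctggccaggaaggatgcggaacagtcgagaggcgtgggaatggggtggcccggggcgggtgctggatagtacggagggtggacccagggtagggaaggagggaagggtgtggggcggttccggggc

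Promoters of 26 of the 34 genes were used, 27 stretches in all. Chromosome 18, on which Cdo1 lies, was left out for the 34 genes but not for the promoters of all genes. The HNF4 core was in 2 of the 27 (7.41%), against 0.384% of the 32851 promoters of all genes. An HNF1 half-site was in 3 (11.1%, against 2.33% of all), the C/EBP letters in 6 (22.2%, against 9.56%) and a TATA box in 10 (37.0%, against 12.4%). None of these motifs was in the Khk or Fah stretch shown, in which CpG pairs are frequent. The ratio of observed to expected CpG pairs was 0.337 in Cyp8b1 and 0.172 in G6pc, whereas it was 0.656 in Khk and 0.788 in Fah. Over the 4 promoters of genes at 1 FPKM or more in all 10 libraries the median ratio was 0.629, over the other 23 it was 0.263, and over all promoters it was 0.374. The 4 were not alike: besides Khk and Fah, Glul had a ratio of 0.601 and none of the motifs. Aldh1l1 had a ratio of 0.316 and held the C/EBP letters. Several genes of the other 23 promoters, among them Tat, Agxt, Bhmt and Gnmt, also had none of the motifs. A match is a run of letters and not a measured binding site, and the absence of a match says only that these letters are not in this window.

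Across libraries, the 34 genes were not split by metastasis and primary labels but were carried by 3 libraries, 2 labelled metastasis and 1 labelled primary. At least 1 FPKM was reached by 32 of the 34 genes in metastasis 25, 5 in metastasis 35, 5 in metastasis 36, 10 in metastasis 38 and 26 in metastasis 72. Among primary libraries it was reached by 12 in primary 25, 5 in primary 35, 6 in primary 36, 8 in primary 38 and 30 in primary 72. Both groups therefore held libraries with nearly all of the genes and libraries with almost none. The median of the 34 genes on the log2(FPKM + 1) scale was 6.08, 0.018, 0.00, 0.32 and 2.02 in metastasis 25, 35, 36, 38 and 72, against 0.36, 0.020, 0.00, 0.042 and 3.37 in primary 25, 35, 36, 38 and 72. Their FPKM sum was 5895 in metastasis 25 and 233 in metastasis 72, against 707 in primary 72, which is 0.628% and 0.0390% of the FPKM of the metastasis libraries and 0.110% of that of the primary library. In the other 7 libraries the sum lay between 35.1 and 142 FPKM.

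**Figure D1:**
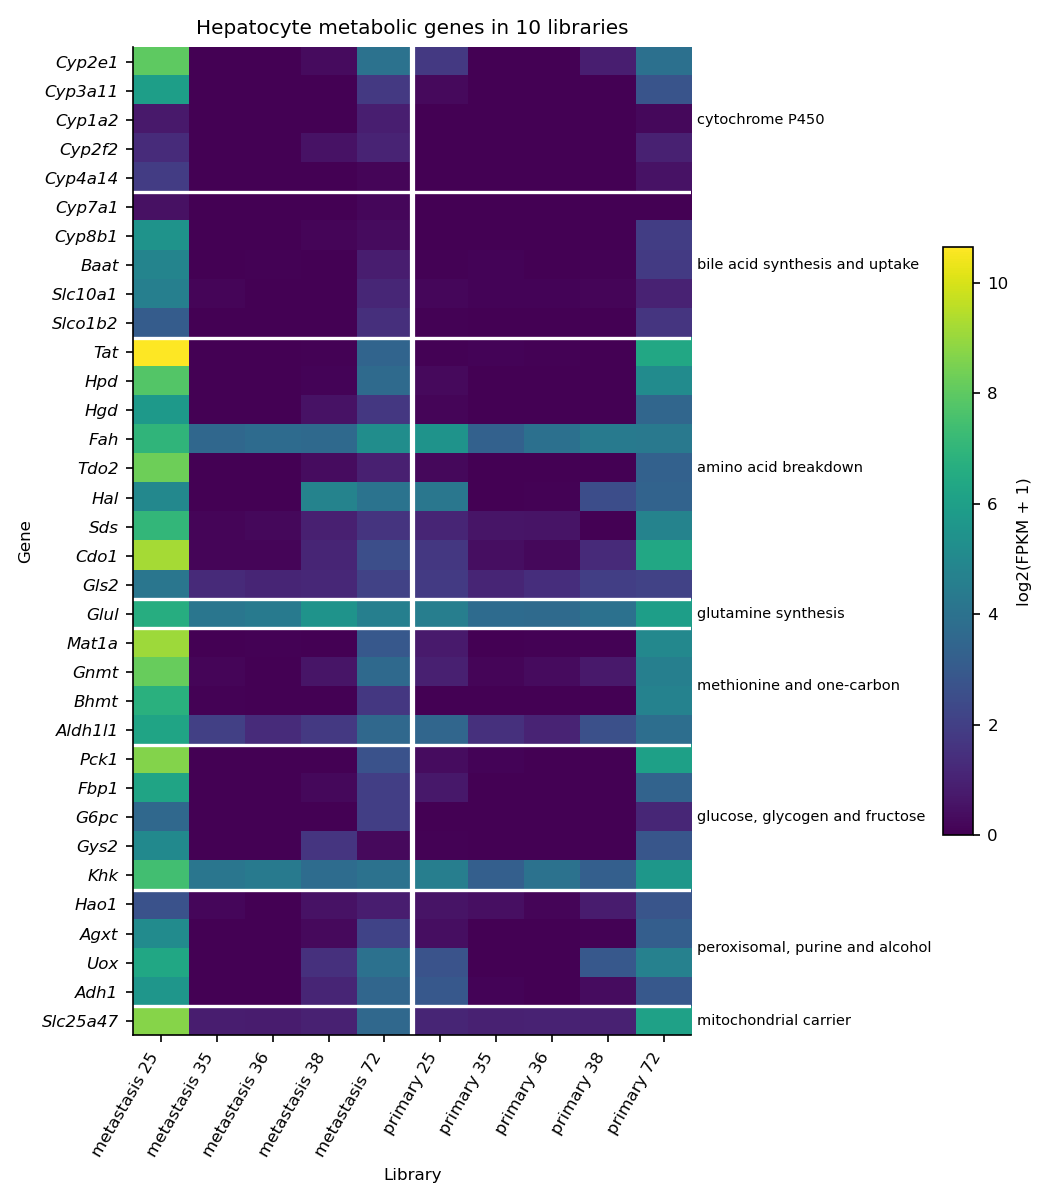
Colour gives log2(FPKM + 1) of each of the 34 genes (rows, grouped by role) in each of the 10 libraries (columns, 5 metastasis on the left and 5 primary on the right). Metastasis 25 is bright in nearly all rows, metastasis 72 and primary 72 are intermediate, and 5 rows (Glul, Fah, Khk, Aldh1l1 and Gls2) stay above 1 FPKM in every column.

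Metastasis 25 was the highest library for 31 of the 32 genes that reached 1 FPKM anywhere, beside 22.0% of all 17076 such genes, and it was over 4-fold above every other library for 23 of them, beside 3.14% of all. Metastasis 25, metastasis 72 and primary 72 were each above the other 7 libraries for 27 of the 32, beside 4.50% of all. Within its own group, metastasis 25 was set off from the next library by over 0.71 of the range on the log2(FPKM + 1) scale for 9 of the 34 genes, beside 4.38% of all, and primary 72 for 24, beside 5.29% of all. These counts use the values by which the genes were picked, so nothing is read from them. In 20 of the 34 genes metastasis 25 came first, primary 72 next, metastasis 72 after it and the other 7 libraries last. No share over all genes was counted for this order, so nothing is read from it either. Cyp1a2 and Cyp7a1 reached 1 FPKM in no library.

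The design asks how liver metastases differ from primary tumours, and for these genes no difference was detected. With limma on log2(FPKM + 1), over the 13152 genes that reached 1 FPKM in 5 or more libraries, 0 genes (0%) passed at an adjusted p of 0.05, and 31 genes (0.236%) had an unadjusted p under 0.05. Of the 34 genes 10 were abundant enough to be kept (Glul, Fah, Khk, Hal, Uox, Aldh1l1, Gls2, Cdo1, Slc25a47 and Adh1). None passed or had an unadjusted p under 0.05, and by limma with Benjamini-Hochberg adjustment no adjusted p was lower than 1.00. Their log2 fold changes, metastasis over primary, were all positive, with a median of 0.62 beside 0.0075 over all genes tested, yet without metastasis 25 the median was -0.25 over the 8 genes then kept, 2 of them higher and 6 lower. With no filter on low values all 34 genes entered among 27673, again with 0 calls (0%). Their largest log2 fold change was that of Tat, 1.51 with a standard error of 2.21, and the only negative one was that of Hao1, -0.10 with a standard error of 0.63. For no gene of the 34 did the 5 metastasis values and the 5 primary values fail to overlap, beside 0.0937% of the 17076 genes. The marker sums of hepatocytes given above move with these levels, and their part in the fold changes was not tested.

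Set side by side within each tumour number, the genes went opposite ways in 2 numbers. In number 25 all 34 genes were higher in the metastasis, and the difference of the medians, metastasis minus primary, was 5.72 on the log2(FPKM + 1) scale. In number 72, 10 genes were higher and 24 lower in the metastasis, with a difference of -1.35. The genes were picked by these values, and no share over all genes was counted for these directions. Nothing is therefore read from the counts. The other 3 numbers held little of these transcripts in either library. There the differences were -0.0016 in number 35, 0.00 in number 36 and 0.28 in number 38. The mean difference over the 5 numbers was 0.93, and without number 25 it was -0.27.

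**Figure D2:**
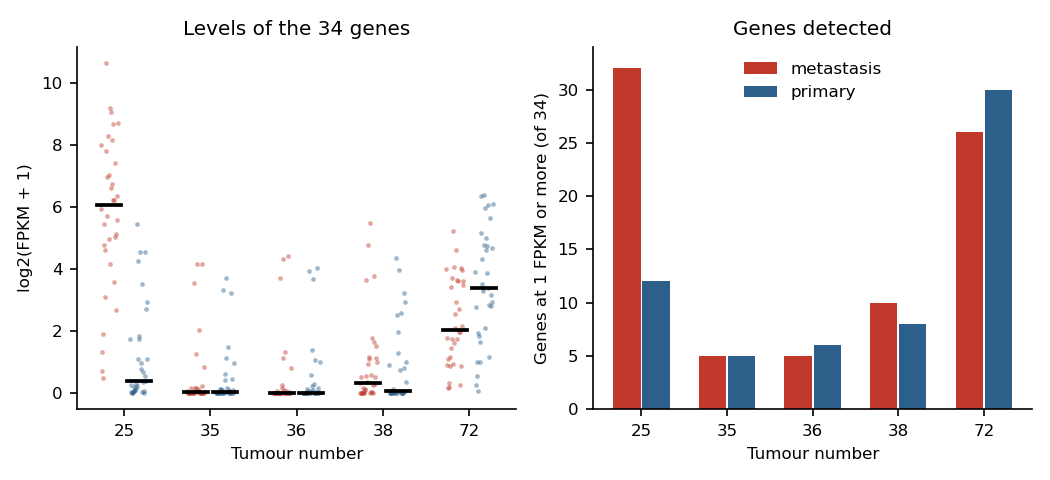
Left, each point is 1 of the 34 genes in log2(FPKM + 1), with a black bar at the median, for the metastasis (red) and primary (blue) library of each tumour number. Right, bars count the genes at 1 FPKM or more, 32 in metastasis 25 and 26 in metastasis 72, against 12 in primary 25 and 30 in primary 72.

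The cytochrome P450 enzymes were led by Cyp2e1 (chr7:140763739-140774987), which oxidises ethanol and small solvents in pericentral hepatocytes. Cyp2e1 was at 259, 0.0282, 0, 0.230 and 15.0 FPKM in metastasis 25, 35, 36, 38 and 72, against 2.36, 0, 0, 0.862 and 14.1 FPKM in primary 25, 35, 36, 38 and 72. Its levels in both libraries of number 72 were nearly equal, as were those of Cyp2f2. Cyp3a11, the mouse relative of the main human drug-metabolising P450, was at 60.8, 0, 0, 0 and 2.38 FPKM in the metastasis libraries in the same order of numbers, against 0.197, 0, 0, 0 and 5.84 FPKM in the primary libraries. Cyp4a14, a fatty acid hydroxylase, reached 1 FPKM in metastasis 25 alone, with 2.74 FPKM. Cyp2f2, known in periportal hepatocytes and in club cells of the airway, was at 1.5 FPKM in metastasis 25 and 1.11 FPKM in metastasis 72, against 0.992 FPKM in primary 72. Of the other club cell markers, Scgb1a1 and Scgb3a2 were at 0 in metastasis 25 and in metastasis 72, and Sftpd, a surfactant protein, was at 8.04 FPKM in metastasis 25 and 2.95 FPKM in metastasis 72, against 0.121 FPKM in primary 72. Cyp1a2, which oxidises caffeine and aromatic amines, was highest in metastasis 72. Its levels were 0.635, 0, 0, 0 and 0.874 FPKM in metastasis libraries, against 0.0226, 0, 0, 0 and 0.183 FPKM in primary libraries. Cytochrome P450 genes belong to families with near-identical copies, and how shared reads were assigned is not stated, so their levels are uncertain.

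Bile acid genes followed the same libraries at lower levels. Cyp8b1, the sterol hydroxylase that sets how much cholic acid is made, was at 43.1, 0, 0, 0.106 and 0.229 FPKM in metastasis libraries, against 0.0219, 0, 0, 0 and 2.78 FPKM in primary libraries. Baat, which joins bile acids to taurine or glycine, was at 26.6, 0, 0.0404, 0 and 0.797 FPKM in metastasis libraries, against 0.0440, 0.0748, 0, 0.0327 and 2.55 FPKM in primary libraries. Both were high in metastasis 25 and in no other metastasis library. The uptake carriers Slc10a1 and Slco1b2, which bring bile acids in from portal blood, were at 23.5 and 7.50 FPKM in metastasis 25 and 1.21 and 1.71 FPKM in metastasis 72, against 1.00 and 2.13 FPKM in primary 72, while no other library passed 0.129 FPKM. Cyp7a1, the rate-limiting enzyme of bile acid synthesis, was the lowest of the group, with 0.395 FPKM in metastasis 25 and 0.133 FPKM in metastasis 72, against 0.0265 FPKM in primary 72. A single fragment is worth between 0.00571 and 0.0528 FPKM for these 34 genes, depending on exon length and depth. For Cyp7a1 it is worth 0.00788 to 0.0153 FPKM. Its level in primary 72 thus rests on few fragments, and those in metastasis 25 and metastasis 72 on more.

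Amino acid breakdown held the highest levels and 52.3% of the FPKM sum of the 34 genes in metastasis 25. Tat (chr8:109990437-109999803), which starts tyrosine breakdown and is induced by glucocorticoids in liver, was at 1603, 0.0180, 0, 0.0520 and 9.65 FPKM in metastasis libraries, against 0.0530, 0.0660, 0.0345, 0.0163 and 81.5 FPKM in primary libraries. Outside metastasis 25, metastasis 72 and primary 72 it was at or near 0. The next enzymes of the tyrosine pathway, Hpd and Hgd, had the same order. Hpd was at 224 FPKM in metastasis 25 and 12.0 FPKM in metastasis 72, against 34.7 FPKM in primary 72. Hgd was at 51.9 FPKM in metastasis 25 and 2.32 FPKM in metastasis 72, against 10.3 FPKM in primary 72. Fah, the last enzyme of the pathway, was different in being measured in every library, with 124, 10.8, 12.2, 11.4 and 36.3 FPKM in metastasis libraries, against 42.7, 8.89, 14.2, 19.4 and 19.0 FPKM in primary libraries. Gstz1, the step before Fah, was also in all libraries, at 11.5 to 73.9 FPKM, whereas Tat, Hpd and Hgd reached 1 FPKM in 3 libraries each. Tdo2, which opens the tryptophan ring, was at 317 FPKM in metastasis 25 and 0.903 FPKM in metastasis 72, against 8.84 FPKM in primary 72. Sds, the serine dehydratase, was at 130 FPKM in metastasis 25 and 2.07 FPKM in metastasis 72, against 26.5 FPKM in primary 72.

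Hal, Cdo1 and Uox shared another pattern: they were at 1 FPKM or more in the 6 libraries of numbers 25, 38 and 72 and under it in the 4 of numbers 35 and 36, as 3.62% of the 17076 genes were. Hal, the histidine ammonia lyase of liver and skin, was at 30.1, 0.0181, 0, 26.4 and 15.8 FPKM in metastasis libraries, against 17.9, 0.0151, 0.0368, 4.68 and 9.38 FPKM in primary libraries. Its level in metastasis 38, where albumin was at 0.159 FPKM, was close to that in metastasis 25, so it did not follow the liver markers. Uox, the urate oxidase of liver peroxisomes, was at 80.3, 0, 0, 1.81 and 14.6 FPKM in metastasis libraries, against 5.57, 0, 0.0148, 6.55 and 24.9 FPKM in primary libraries. Cdo1, which oxidises cysteine on the way to taurine and is also known in adipose tissue, was at 586, 0.117, 0.106, 1.13 and 4.84 FPKM in metastasis libraries, against 2.34, 0.316, 0.168, 1.42 and 83.7 FPKM in primary libraries. Leukocyte markers divided the libraries in the same way: the sum of the 10 genes of that list was between 2079 and 11436 FPKM in metastasis 25, 38 and 72, against between 772 and 2606 FPKM in primary 25, 38 and 72. It was 2.21 to 3.41 FPKM in metastasis 35 and 36, against 2.03 to 2.85 FPKM in primary 35 and 36. In metastasis 25 most of that sum was S100a8 and S100a9, neutrophil genes, at 3926 and 6727 FPKM, whereas Lyz2, a lysozyme of macrophages and neutrophils, had its highest level, 2727 FPKM, in metastasis 38. The part of leukocytes in the Hal, Cdo1 and Uox levels was not tested.

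Glutamine genes and methionine genes differed in how far they depended on the 3 libraries. Glul, the glutamine synthetase that marks pericentral hepatocytes but is used by many cells, was at 98.0, 16.9, 19.1, 43.9 and 23.5 FPKM in metastasis libraries, against 22.6, 12.2, 11.7, 14.6 and 62.1 FPKM in primary libraries. Gls2, the liver glutaminase, was at 16.9, 1.39, 1.16, 1.25 and 3.24 FPKM in metastasis libraries, against 2.55, 1.16, 1.62, 2.90 and 3.23 FPKM in primary libraries. Both were measured throughout, with metastasis 25 highest and the remaining groups overlapping. Mat1a, the liver enzyme that makes S-adenosylmethionine, was at 537, 0.0131, 0.0587, 0 and 6.57 FPKM in metastasis libraries, against 0.694, 0.0128, 0.0499, 0.0473 and 30.8 FPKM in primary libraries. Gnmt, which uses up S-adenosylmethionine by methylating glycine, was at 284, 0.0929, 0, 0.497 and 11.4 FPKM in metastasis libraries, against 0.931, 0.116, 0.225, 0.674 and 23.3 FPKM in primary libraries. Bhmt, which remakes methionine from homocysteine, was at 108 FPKM in metastasis 25 and 2.33 FPKM in metastasis 72, against 25.6 FPKM in primary 72, while no other library passed 0.0378 FPKM. Aldh1l1, the folate dehydrogenase of liver and astrocytes, was in every library, with 74.1, 3.09, 1.49, 2.42 and 11.3 FPKM in metastasis libraries, against 10.4, 1.81, 1.06, 5.0 and 13.6 FPKM in primary libraries.

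Among glucose, glycogen and fructose genes, Pck1 (chr2:173153048-173159273), the gatekeeper of gluconeogenesis, was at 407, 0, 0.0287, 0.0253 and 5.51 FPKM in metastasis libraries, against 0.272, 0.0626, 0, 0 and 65.7 FPKM in primary libraries. Fbp1, a later step of glucose synthesis, was at 73.3 FPKM in metastasis 25 and 2.88 FPKM in metastasis 72, against 9.36 FPKM in primary 72. G6pc, the phosphatase that releases free glucose, was at 11 FPKM in metastasis 25 and 2.88 FPKM in metastasis 72, against 1.21 FPKM in primary 72, and was listed at 0 in the other 7 libraries. Of these 3 steps of glucose release, G6pc was the one higher in metastasis 72 than in primary 72. Gys2, the liver glycogen synthase, was at 31.9 FPKM in metastasis 25, 2.10 FPKM in metastasis 38 and 0.199 FPKM in metastasis 72, against 6.18 FPKM in primary 72. Khk, which phosphorylates fructose, was broad, with 172, 17, 20.2, 12.5 and 15.2 FPKM in metastasis libraries, against 22.3, 8.40, 15.2, 8.24 and 48.7 FPKM in primary libraries.

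The peroxisomal gene Hao1, a glycolate oxidase, was highest in primary 72: it was at 5.35, 0.148, 0.0191, 0.419 and 0.803 FPKM in metastasis libraries, against 0.457, 0.354, 0.101, 0.746 and 6.04 FPKM in primary libraries. Agxt, which turns the glyoxylate made by Hao1 into glycine, was at 34 FPKM in metastasis 25 and 3.43 FPKM in metastasis 72, against 7.96 FPKM in primary 72. These neighbours in glyoxylate metabolism therefore had different ratios between metastasis 25 and primary 72. Adh1, the liver alcohol dehydrogenase, was at 46.7, 0, 0, 1.15 and 10.3 FPKM in metastasis libraries, against 6.59, 0.0631, 0, 0.262 and 6.64 FPKM in primary libraries. Slc25a47, a mitochondrial carrier known from liver, was at 424, 0.791, 0.739, 0.979 and 11.3 FPKM in metastasis libraries, against 1.13, 0.944, 1.00, 0.991 and 67.8 FPKM in primary libraries. Its levels of about 1 FPKM in the 7 libraries with few liver transcripts were all above 0.

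By breadth, 5 genes stood apart, with 1 FPKM or more in all 10 libraries: Glul, Fah, Khk, Aldh1l1 and Gls2. Another 5 were so in 5 or 6 libraries, and 24 in at most 4. In the 4 libraries of numbers 35 and 36, 28 of the genes were under 1 FPKM throughout and 11 were listed at 0 throughout. An exact 0 in this table can be a failed estimate, so such values are not read as absence. At the filter of 5 libraries, Adh1 and Slc25a47 just passed with 5 libraries, and Cyp2e1 and Sds just missed it with 4. Since a gene could pass through the libraries where it is high, the kept genes do not stand for all 34. Over the broad 5, the limma log2 fold changes were 0.67 for Glul (standard error 0.56), 0.35 for Fah (0.67), 0.63 for Khk (0.72), 0.50 for Aldh1l1 (0.93) and 0.28 for Gls2 (0.56). Each was smaller than its standard error except that of Glul. The mean of Glul was 40.3 FPKM (SD 34) in the metastasis group, against 24.6 FPKM (SD 21.4) in the primary group, with n = 5 each. Without metastasis 25, the log2 fold change of Glul was 0.27, and those of Fah, Khk, Aldh1l1 and Gls2 were -0.24, -0.04, -0.31 and -0.27.

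**Figure D3:**
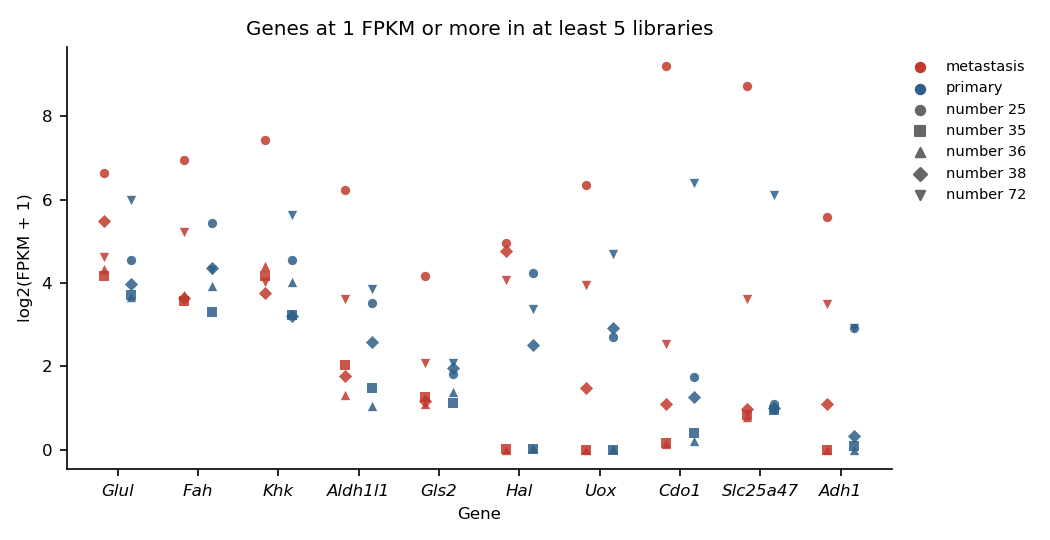
Points give log2(FPKM + 1) of the 10 genes at 1 FPKM or more in at least 5 libraries, metastasis (red) left of primary (blue), with a marker shape for each tumour number. The circles of metastasis 25 lie at or above the other points for every gene, and the red and blue points overlap.

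The levels of the 34 genes were also set against each other between the 3 libraries with liver markers. Between metastasis 25 and primary 72, the ratio of FPKM had a median of 6.26 over the 34 genes, from 0.886 for Hao1 to 35.9 for Tdo2, and 33 genes were above 1. The hepatocyte marker sum had a ratio of 9.64 and albumin alone a ratio of 22.6, which Slc10a1 (23.5) and Tdo2 alone exceeded among the 34. Without Trf, the marker sum had a ratio of 12.9. Relative to the full marker sum the genes had a median log2 ratio of -0.62. It was -1.05 relative to the markers without Trf and -1.85 relative to albumin alone. Between metastasis 72 and primary 72, the median ratio was 0.363, from 0.0322 for Gys2 to 5.04 for Cyp7a1, whose levels were very low, while the marker sum had a ratio of 0.247 and albumin a ratio of 0.319. Some genes far below the albumin ratio were Gys2, Cdo1 (0.0578), Sds (0.0779), Cyp8b1 (0.0824), Pck1 (0.0839), Bhmt (0.0911), Tdo2 (0.102) and Tat (0.118). Others were higher in metastasis 72 than in primary 72, among them Cyp2e1 (1.07), Adh1 (1.55), Hal (1.68), Fah (1.91) and G6pc (2.39). Fah, Glul, Khk and Hal were also at several FPKM or more in libraries with few liver markers, and Cyp7a1 and Cyp1a2 rest on low values. These are single libraries, so the ratios have no replicate check and their spread was not tested.

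**Figure D4:**
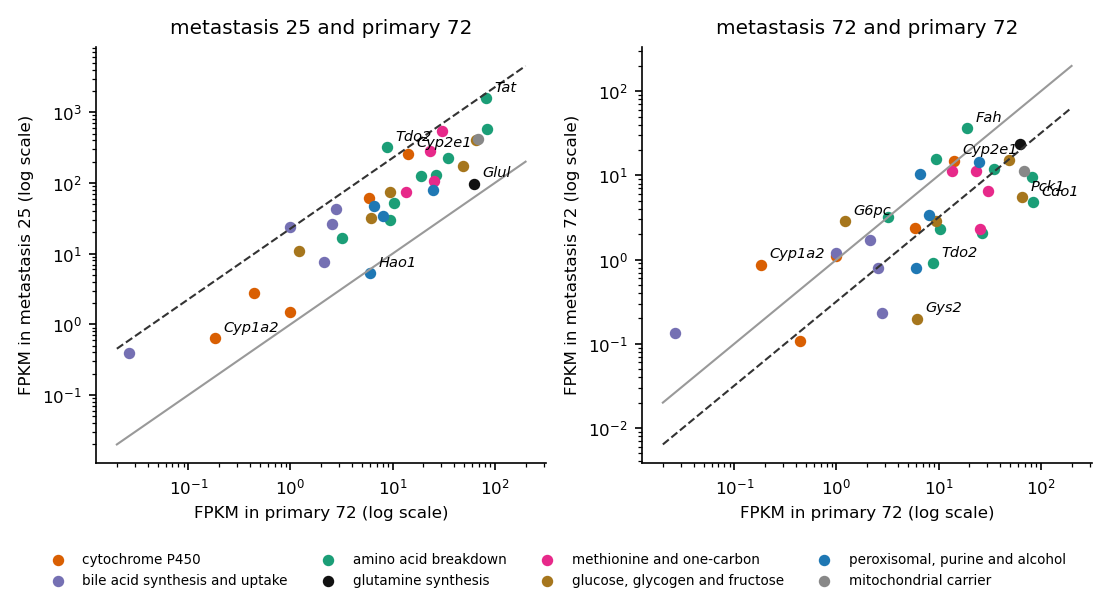
Each point is 1 of the 34 genes, with FPKM in metastasis 25 (left) or metastasis 72 (right) on the y axis and FPKM in primary 72 on the x axis, both on log scales and coloured by role. The solid line marks equal levels and the dashed line the albumin ratio (22.6 on the left, 0.319 on the right); 33 points lie above the solid line on the left and 10 on the right.

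Genes of the lobule zones were compared in the same way, as the log2 ratio of FPKM + 0.1. Between metastasis 25 and primary 72, pericentral genes had a median of 2.47 and periportal genes a median of 2.49, 10 genes on each list. Between metastasis 72 and primary 72, the pericentral median was 0.043, with 5 of 10 genes above 0. The periportal median was -0.90, with 4 of 10 above 0. Of the pericentral genes above 0, Cyp1a2, Cyp7a1 and Rhbg were under 1 FPKM in metastasis 72 and in primary 72. Slc1a2, just below 0, was at 0.167 FPKM in metastasis 72, against 0.168 FPKM in primary 72. Among periportal genes Etnppl alone was under 1 FPKM in these libraries, with a ratio below 0. The pericentral median thus rests partly on very low values, and the difference between the zones was not tested. The lowest in the second comparison were Gulo, the last enzyme of vitamin C synthesis in mice, among pericentral genes (-1.58) and Sds among periportal genes (-3.62). The lists share members with the 34 genes.

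Most of these enzymes have a relative that other cells use, and the share of the liver gene in the FPKM of each pair gives a second view. Mat1a made up 89.4% of Mat1a and Mat2a in metastasis 25 and 7.01% in metastasis 72, against 13.8% in primary 72, and at most 0.621% elsewhere. Mat2a, the form of proliferating cells, was itself lowest in metastasis 25 at 63.7 FPKM and highest in metastasis 35 at 255 FPKM. Pck1 made up 97.6% of Pck1 and mitochondrial Pck2 in metastasis 25 and 25.3% in metastasis 72, against 91.6% in primary 72. Pck1 was thus the main form in metastasis 25 and primary 72 but not in metastasis 72. Gys2 made up 86.3% of Gys2 and Gys1 in metastasis 25 and 0.774% in metastasis 72, against 33.1% in primary 72. In these 3 pairs the share was lower in metastasis 72 than in primary 72, while Adh1 and G6pc went the other way. Adh1 made up 18.2% of Adh1 and Adh5 in metastasis 72, against 9.50% in primary 72, and G6pc made up 7.32% of G6pc and G6pc3 in metastasis 72, against 4.45% in primary 72. Fbp1 made up at least 98.2% of Fbp1 and Fbp2 in all 3 libraries. Over 10 such pairs, the liver gene held more than 50% in 5 pairs in metastasis 25 and 2 in metastasis 72, against 3 in primary 72 and 2 in primary 25.

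**Figure D5:**
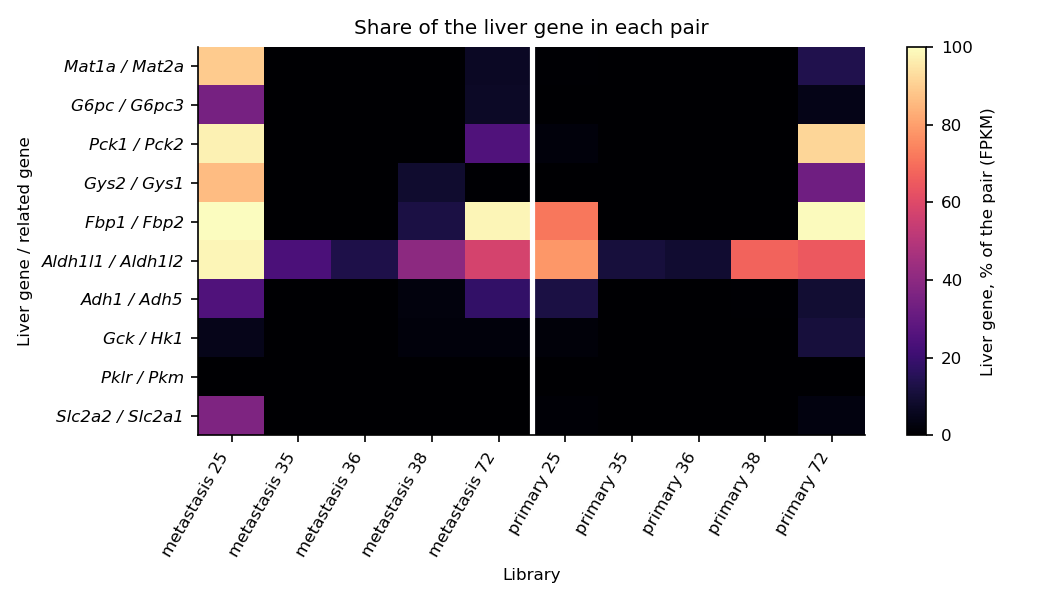
Colour gives the FPKM of the liver gene as a percentage of the FPKM of the pair, for 10 pairs (rows) in 10 libraries (columns, metastasis left of primary). Metastasis 25 has the brightest column, with 5 pairs above 50%, and the columns of numbers 35 and 36 are dark in nearly every row, at most 24.0%.

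Around the 34 genes, 9 pathway lists held 65 genes, 22 of them among the 34. Of the 65, 25 were abundant enough for limma and 0 passed in either direction. Of the 43 that are not among the 34, 39 were highest in metastasis 25, beside 22.0% of the 17076 genes that reached 1 FPKM in any library. The lists were chosen with earlier results of these data known, so nothing is read from such counts. In the urea cycle, which clears ammonia, Cps1 was at 90.0 FPKM in metastasis 25 and 1.17 FPKM in metastasis 72, against 5.77 FPKM in primary 72, while no other library passed 0.109 FPKM. Arg1, its last enzyme and also a macrophage gene, was at 778, 0.0305, 0.165, 156 and 545 FPKM in metastasis libraries, against 312, 0.0599, 0.0876, 210 and 204 FPKM in primary libraries, which divides the numbers as Hal did. Of 5 listed genes of tyrosine breakdown, only Gstz1 is not among the 34. Gstz1 was at 73.9 FPKM in metastasis 25 and 11.6 FPKM in metastasis 72, against 24.4 FPKM in primary 72. The sum of all 5, which is thus mostly a sum of genes already described, was 2076 FPKM in metastasis 25 and 71.9 FPKM in metastasis 72. It was 170 FPKM in primary 72 and 22.8 to 57.5 FPKM elsewhere. Bile acid genes were a partial exception, since Hsd3b7, an early enzyme of bile acid synthesis that other cells also express, was at 25.2, 21.4, 14.6, 49.1 and 60.5 FPKM in metastasis libraries, against 49.9, 25.6, 22.9, 60.5 and 30.3 FPKM in primary libraries. Of 15 listed liver transcription factors, 13 were highest in metastasis 25, beside the 22.0% just given. Foxa2 was instead lowest there, at 1.73 FPKM, and highest in metastasis 36 at 11.4 FPKM, and Onecut1 was highest in metastasis 72 at 0.373 FPKM. Hnf4a was at 36.5 FPKM in metastasis 25 and 1.18 FPKM in metastasis 72, against 5.57 FPKM in primary 72, with 0.336 FPKM or less elsewhere. Cebpa was measured in every library, with 47.1, 6.31, 3.65, 19.5 and 12.8 FPKM in metastasis libraries, against 13.6, 8.93, 7.12, 12.4 and 21.3 FPKM in primary libraries.

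Markers of other cells that use some of these enzymes were counted beside them. Kidney proximal tubule markers, 8 genes, summed to between 0.406 and 1.63 FPKM in metastasis libraries, against 0.324 to 3.93 FPKM in primary libraries, and 6 of the 8, including Slc34a1, Kap and Umod, were at 0 in metastasis 25. The other 2 were not, with Miox at 1.05 FPKM in metastasis 25, its highest library, and Cubn at 0.408 FPKM. In primary 72 all 8 were above 0, with Kap, Miox, Slc34a1 and Umod at 2.29, 0.950, 0.0605 and 0.0293 FPKM. Adipocyte markers, 8 genes, summed to between 0.804 and 41.5 FPKM in metastasis libraries, against 1.27 to 75.5 FPKM in primary libraries, with Plin1, Lep, Retn and Cfd at 0 in metastasis 25 and Fabp4, Lipe and Cidec there at 34.5, 5.44 and 1.39 FPKM. The adipocyte sum was highest in metastasis 25 among metastasis libraries and in primary 25 among primary libraries, and the kidney sum in metastasis 36 and in primary 72. The 7 markers of Kupffer cells and liver endothelium summed to 0.154 to 35.5 FPKM in metastasis libraries, against 0.245 to 29.3 FPKM in primary libraries, highest in metastasis 25 and primary 72. Clec4f, a Kupffer cell receptor, was at 7.38 FPKM in metastasis 25 and 1.61 FPKM in metastasis 72, against 12.9 FPKM in primary 72, with 0.174 FPKM or less elsewhere. Timd4, another Kupffer cell marker, did not have this order, with 0.273 FPKM in metastasis 25 and 12.3 FPKM in metastasis 38, against 1.37 FPKM in primary 72 and 4.45 FPKM in primary 25. Muscle markers, 6 genes, summed to 4.15 to 6435 FPKM in metastasis libraries, highest in metastasis 38, against 1.64 to 485 FPKM in primary libraries, highest in primary 72. Islet markers, 7 genes, summed to 0 to 8.03 FPKM in metastasis libraries, against 0 to 6413 FPKM in primary libraries, highest in primary 25. The part of any of these cells in the levels of the 34 genes was not tested.

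Of the 34 genes, 8 share exon bases with another gene on GRCm38, among them Sds with Plbd2 on the opposite strand (360 bases), Aldh1l1 with the antisense gene Gm15756 (499 bases) and Gls2 with Spryd4 (97 bases). The use of strand in counting, a setting not given in the sources used here, decides whether reads of such genes can be separated, so here they cannot be told apart.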

How the data were processed

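The values analysed are FPKM as the authors deposited them, in a single table with all 10 libraries as columns; 35 lines without identifier were left out. Per the submitters' processing notes Salmon, edgeR and the build mm8 were used, in roles not given in the sources used here. Of the 48516 identifiers 40685 were found in GENCODE M21, and 99.97% of these lay inside the deposited locus, so coordinates are for GRCm38. Of the 34 genes, 27 had the same identifier version and 28 lay inside the deposited locus. Cyp1a2, Slc10a1, Cdo1, Mat1a, Bhmt and Slc25a47 did neither, so exon lengths and overlaps may fit their deposited values less well. Depth, read from the smallest steps of values in single-exon genes, was 15.7 M fragments in metastasis 25 and 24.1 to 30.4 M in the others; the FPKM sum was 939415 in metastasis 25 and at most 653161 elsewhere. A lower depth makes low values less precise.

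Values were used as log2(FPKM + 1), which understates the change of low genes, and genes under 1 FPKM in more than 5 libraries were left out. Groups came from the labels. They were compared by limma (version 3.58.1, R 4.3.3; intensity trend, Benjamini-Hochberg over all genes kept), tested on simulated data; count models were not used on FPKM. Same-numbered samples deviated together from their group means (correlations 0.39, 0.86, 0.89, 0.68 and 0.23 for numbers 25, 35, 36, 38 and 72), so the numbers in the labels were taken to pair them, although the closest primary library was that of the same number for 36 and 38 only; it was primary 72 for metastasis 25, primary 36 for metastasis 35 and primary 25 for metastasis 72. Alternatives were the number as a block, another pseudocount, other minimums, median ratio scaling and omission of each library. The genes and all lists were chosen with earlier results of these data known. Values in every library are printed for genes at 1 FPKM or more in 5 or more libraries, for the highest 1 or 2 of each role in metastasis 25 and for those highest elsewhere; other genes and ratios were named after their values were seen. Plots used matplotlib 3.10.9 with Python 3.11.15. Some genes of the pathway and pair lists are not reported here.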

Additional observations from a re-analysis of the deposited data

Results flagged for a closer look

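For 24 of the 34 genes primary 72 stood apart from the other 4 primary libraries, and for 9 genes metastasis 25 stood apart from the other 4 metastasis libraries: on the log2(FPKM + 1) scale, the gap to the nearest library was more than 0.71 of the range of the group. Of the 17076 genes that reached 1 FPKM in any library, 5.29% had such a gap for primary 72 and 4.38% for metastasis 25. A gap of this size, in any library and at either end, arises by chance in about 1 group in 20. The shares above count 1 named library at the high end only, so that rate is not their reference. The genes were picked by these values and share their libraries, so nothing is read from their counts.

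The gap of metastasis 25, as a share of the range, was 0.922 for Cyp4a14, 0.946 for Cyp8b1, 0.823 for Baat, 0.752 for Slc10a1, 0.888 for Tdo2, 0.788 for Sds, 0.735 for Cdo1, 0.743 for Bhmt and 0.824 for Khk. Khk is the broad gene among them.

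The gap of primary 72 among cytochrome P450 and bile acid genes was 0.906 for Cyp3a11, 0.867 for Cyp1a2, 1.00 for Cyp2f2, 0.958 for Cyp4a14, 0.984 for Cyp8b1, 0.943 for Baat, 0.922 for Slc10a1 and 0.957 for Slco1b2. Among amino acid and methionine genes it was 0.989 for Tat, 0.944 for Hpd, 0.955 for Hgd, 0.933 for Tdo2, 0.771 for Sds, 0.755 for Cdo1, 0.851 for Mat1a, 0.822 for Gnmt and 0.994 for Bhmt. Among the rest it was 0.943 for Pck1, 0.799 for Fbp1, 1.00 for G6pc, 0.977 for Gys2, 0.752 for Hao1, 0.879 for Agxt and 0.974 for Slc25a47. Cyp1a2, Cyp4a14 and Cyp2f2 were at only 0.183, 0.438 and 0.992 FPKM in primary 72, so their gaps rest on low values. For Cyp2f2 and G6pc the other primary libraries were all listed at 0, which gives the gap of 1.00. The median of the 34 genes gave 0.892 for primary 72.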

How the results depend on the processing

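In every alternative run 0 genes were called, the pairing by number as a block included (0 of the 34 genes called, 208 genes at an unadjusted p under 0.05); the block changed no call. The median log2 fold change of the kept genes lay between -0.25 and 0.98 when each library was left out in turn, negative without metastasis 25 alone, and was -0.40 without metastasis 25, metastasis 72 and primary 72, a choice made after seeing the data. With single libraries left out, Fah ranged from -0.24 to 0.64, Khk from -0.039 to 1.01, Aldh1l1 from -0.31 to 0.91, Gls2 from -0.27 to 0.49 and Cdo1 from -1.02 to 1.72, each negative without metastasis 25. Uox ranged from -0.71 to 0.95 and was also negative without metastasis 72, primary 35 or primary 36 (-0.11, -0.23 and -0.22). Without metastasis 25, metastasis 72 and primary 72, Fah, Aldh1l1 and Gls2 were at -0.62, -0.45 and -0.40, and Glul and Khk at 0.68 and 0.36; without numbers 25 and 72, Fah and Gls2 were at -0.23 and -0.31, and Glul, Khk and Aldh1l1 at 0.88, 0.63 and 0.0023. The mean difference within numbers ranged from -0.27 (without number 25) to 1.5. At a minimum of 0.1 FPKM, 10, 8 and 21 genes were counted in metastasis 35, 36 and 38, against 23, 10, 10 and 13 in primary 25, 35, 36 and 38; at 10 FPKM, 3, 3, 4 and 11 in metastasis 35, 36, 38 and 72, against 5, 1, 3, 2 and 16 in primary 25, 35, 36, 38 and 72. Relative to albumin alone, metastasis 25 against primary 72 was at -1.85 in place of -0.62, and relative to the markers without Trf at -1.05. The cause was not tested. Depth limits values near 1 fragment, most of those under 0.05 FPKM.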
